A study of Mus musculus with 56 samples.

Results

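The 6 genes described here were those whose levels differed most between gastrocnemius muscle of locked-wheel males labelled HuRm-/- and that of their controls, without overlap between the 7 and 7 mice, in an earlier look at the same counts. They are 2 long RNAs without a known protein, 5430431A17Rik and Srrm4os, and 4 protein-coding genes, Pi4kb, Mocs2, 1600014C10Rik and Peli2, out of 15539 genes in the table. They were chosen by their counts in the locked males, so their values in those mice are given only as a description. The question asked was whether the same shifts were present in the other 3 pairs of groups, that is, in 42 mice that had no part in the choice. Of the 15539 genes, 13975 had enough counts to be tested in these 42 mice, and all 6 genes were among them.

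The series holds 56 C57Bl/6 mice on a chow diet, in 8 groups of 7 that combine sex, genotype and wheel. HuRm-/- mice carry a floxed Elavl1 gene, which encodes HuR, and Cre driven by the Mlc1f promoter of Myl1, a myosin light chain gene of muscle fibres; the controls were floxed littermates without the deletion. Mice were held with a locked or a running wheel from 10 to 20 weeks of age, and the labels give an age of 5 months for all of them. Groups are written with M or F for sex, C for control or H for the HuRm-/- label, and E for a running wheel: MC, MH, FC and FH had locked wheels, and MCE, MHE, FCE and FHE had running wheels. The whole muscle was taken, so RNA of nerve, blood, fat and vessel cells was read together with that of the fibres, and fewer cells of a type and less RNA per cell cannot be told apart.

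HuR is an RNA-binding protein that holds on to stretches rich in U and A, mostly in the 3′ untranslated region (3′ UTR) of messenger RNAs, and is best known for slowing their decay. In muscle it has been studied for its part in fibre formation and in the balance of fibre types. The RNAs described here are not a pathway. Mocs2 encodes both subunits of molybdopterin synthase, a step in making the molybdenum cofactor that sulfite oxidase and xanthine oxidase need. Pi4kb encodes phosphatidylinositol 4-kinase beta, which makes the lipid PI4P at the Golgi. Peli2 encodes a Pellino ubiquitin ligase that acts with IRAK kinases below Toll-like receptors. 1600014C10Rik is the mouse counterpart of human C19orf12, a membrane protein of mitochondria and endoplasmic reticulum whose loss is a cause of neurodegeneration with brain iron accumulation. Srrm4os lies antisense to Srrm4, a splicing regulator of neurons, and 5430431A17Rik is annotated only as a long intergenic RNA.

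All 6 genes lie on the plus strand in GENCODE M21 (GRCm38). 5430431A17Rik (ENSMUSG00000108322) spans chr7:44473538-44486138 between Josd2 and Emc10, and Srrm4os (ENSMUSG00000086219) spans chr5:116438720-116465487. Pi4kb (ENSMUSG00000038861) spans chr3:94974731-95006843, Mocs2 (ENSMUSG00000015536) chr13:114818236-114832275, 1600014C10Rik (ENSMUSG00000054676) chr7:38183217-38197568 and Peli2 (ENSMUSG00000021846) chr14:48120823-48281575. Exons of some members are shared with a gene on the other strand. Srrm4os shares 68 bases with Srrm4, and Pi4kb shares 254 bases with Zfp687, where the 3′ ends of both genes meet, 234 bases with A730011C13Rik and 407 bases with Gm15265, and 1600014C10Rik shares 113 bases with D530033B14Rik. Whether strand was used in counting is not given in the sources used here, so reads in these stretches cannot be assigned to 1 of the pair. Srrm4 itself had 0 to 35 counts per mouse and was too low to be tested. Zfp687 did not pass the test in the mean of the 3 comparisons (log2 fold change 0.06, SE 0.10, adjusted p = 0.769), nor did A730011C13Rik (log2 -0.01, SE 0.23, adjusted p = 0.984). Gm15265 and D530033B14Rik were not analysed here. Peli2 also contains a pseudogene on its own strand, Gm6498, with which it shares 869 exonic bases.

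Because HuR is known for binding AU-rich elements, the sequences of the members were searched on the transcript strand for the core pentamer ATTTA and for the longer TATTTAT, which contains it. The longest annotated 3′ UTR was used for the protein-coding genes and the longest transcript for the 2 noncoding RNAs. The 3 coding genes that were lower in MH all held TATTTAT. Mocs2 had 2 matches in 4257 bases, Peli2 had 3 in 4306 bases and 1600014C10Rik had 4 in 2773 bases, 3 of them overlapping in a single tract. The coding gene that was higher, Pi4kb, held neither motif in 903 bases. Among all 12627 genes tested that had an annotated 3′ UTR, 30.8% held TATTTAT and 70.7% held ATTTA. Long 3′ UTRs hold it more often: of the 1553 genes with a 3′ UTR of 2773 to 4306 bases, 56.8% held TATTTAT. Of the 821 genes with a 3′ UTR within 10% of the length of that of Pi4kb, 29.96% held no ATTTA. Of the noncoding RNAs, Srrm4os held 2 matches to TATTTAT in 3360 bases, and 5430431A17Rik held no match to either motif in 1332 bases. One or 2 matches of each gene that had any are shown with 11 bases on either side, the match in capitals.
Mocs2, chr13:114828989-114829017, plus strand: tttctgcaagaTATTTATactaagcatcc
Mocs2, chr13:114831980-114832008, plus strand: tgttatataatTATTTATataaaattata
1600014C10Rik, chr7:38196615-38196643, plus strand: gtttgtttattTATTTATttatatcttta
Peli2, chr14:48260736-48260764, plus strand: aacctagacttTATTTATacatttctgca
Srrm4os, chr5:116464957-116464985, plus strand: gagctaactagTATTTATgatgcaaaggt
The match is a description of the letters and not of a bound site.

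Total counts ran from 6639782 to 21633091 per mouse, with a median of 12380363, and the counts of mice within a group differed by more than sampling noise in every pair (chi-square per degree of freedom 3.69 to 54.2). The sex labels fitted the sex-linked genes in all mice, with 0 of 56 against. Elavl1 did not pass the test as lower in labelled mice in any of the 3 pairs tested, and in locked males its log2 difference was -0.04. Levels are given in CPM, the counts in each 1000000 of the library total after TMM scaling. Median Elavl1 was 53.5 CPM in MC and 50.4 in MH, and 44.6 in FC and 47.8 in FH. With running wheels it was 54.5 in MCE and 60.8 in MHE, and 51.4 in FCE and 52.5 in FHE. In running males it was higher in labelled mice (log2 fold change 0.44, SE 0.12, adjusted p = 0.036), and 2 of the MCE mice, numbers 10 and 13, were low at 30.7 and 27.8 CPM. The paper reports lower Elavl1 mRNA in gastrocnemius of HuRm-/- mice than in controls, which these counts do not show. Where the reads fall relative to the floxed part is not given in the sources used here, and other cells of the muscle keep the gene. The cause of the difference from the paper was not tested, and in these counts Elavl1 does not check the label. Myl1, whose promoter drives Cre, was below every control of its sex and wheel in 5 of 7 MH, 5 of 7 FH, 6 of 7 MHE and 5 of 7 FHE mice.

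In the locked males, each of the 6 genes was separated from the controls by a gap of 0.253 to 0.778 CPM, as 0.408% of all genes were apart in that pair, and this separation is what selected them. 5430431A17Rik ran from 7.01 to 15.9 CPM in MC (median 12.5) and from 16.4 to 22.6 in MH (median 20.0). Srrm4os ran from 2.67 to 3.92 in MC (median 3.25) and from 4.34 to 14.0 in MH (median 9.15). Pi4kb ran from 0.463 to 1.25 in MC (median 1.08) and from 1.503 to 3.35 in MH (median 2.53). These 3 RNAs were the ones with higher levels in labelled males, with log2 fold changes of 0.76, 1.22 and 1.28. Mocs2 ran from 24.5 to 30.1 CPM in MC (median 26.3) and from 14.0 to 24.1 in MH (median 16.5). 1600014C10Rik ran from 16.4 to 27.2 in MC (median 18.9) and from 12.5 to 16.1 in MH (median 14.2), and Peli2 from 9.56 to 12.5 in MC (median 11.5) and from 6.90 to 8.78 in MH (median 7.79). These 3 had lower levels in labelled males, with log2 fold changes of -0.60, -0.49 and -0.48. Just behind the members by the same choice stood Cbr2, a carbonyl reductase, at 0.76 among genes that were higher, and Cd151, a tetraspanin, at -0.45 among those that were lower.

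**Figure D1:**
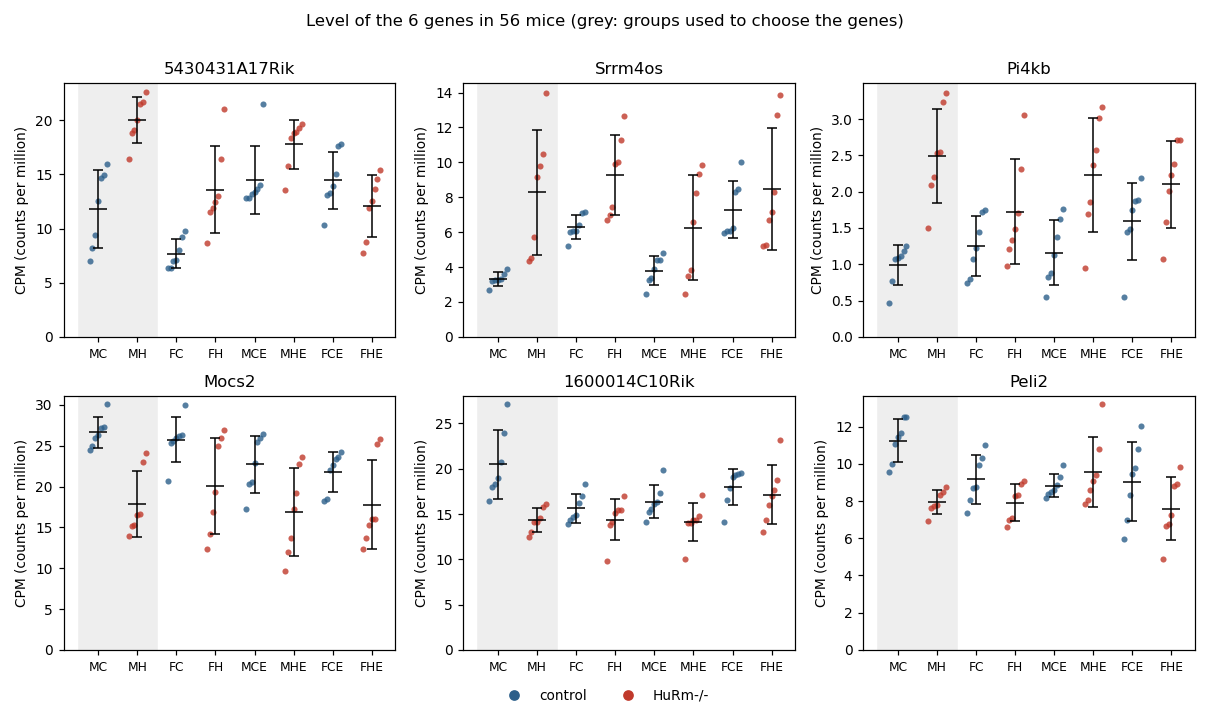
Level of each gene in CPM (y axis) in the 8 groups (x axis), 1 point per mouse, blue for controls and red for mice labelled HuRm-/-; black bars give the mean and SD (n = 7), and grey shading marks the locked males that chose the genes. Red and blue are apart in the shaded pair, and in the other pairs they overlap for every gene.

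The shift was in the same direction in locked females for 6 of the 6 genes, in running males for 5 and in running females for 5. Over all 13446 genes present in both fits, 59.5%, 58.5% and 56.1% had the same direction as in locked males in these 3 comparisons. Among the 55 genes without overlap in locked males, which include the members, the shares were 85.5%, 74.5% and 69.1%. Agreement in direction was thus common to genes set apart in that pair. In none of the 3 pairs were the groups of any member free of overlap, where 0.308%, 0.601% and 0.322% of all genes tested were. An adjusted p of 0.05 or less was reached by 1 of 6 in locked females, where 0.293% of all genes tested passed, and by 0 of 6 in running males, where 2.39% passed. In running females 0 of 6 passed by limma, where 0.00716% of genes did, and at an unadjusted p under 0.05 there were 4 of 6 in running males (15.6% of all genes) and 1 of 6 in running females (13% of all genes). In the mean of the 3 comparisons over 42 mice, 3 of 6 passed, against 7.96% of all genes: Mocs2, Pi4kb and Srrm4os. Of the 55 genes without overlap in locked males, 12 passed there in the direction of the locked males, these 3 among them.

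**Figure D2:**
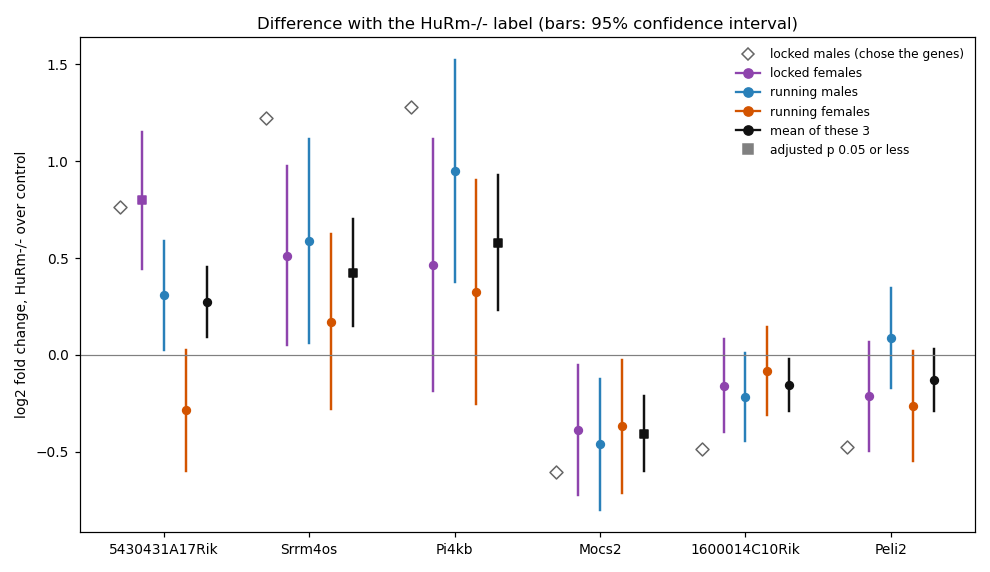
Log2 fold change of mice labelled HuRm-/- over controls (y axis) for each gene (x axis), with 95% confidence intervals, in locked females, running males, running females and the mean of these 3; squares mark an adjusted p of 0.05 or less. Open diamonds give the locked males, which chose the genes. Mocs2 lies below 0 in every comparison, and 5430431A17Rik lies at 0.80 in locked females and at -0.29 in running females.

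Of the 6 genes, 5430431A17Rik was the one that passed in a single pair of groups. It ran from 6.31 to 9.74 CPM in FC (median 7.06) and from 8.70 to 21.1 in FH (median 12.4), and 6 of 7 FH mice were above every FC mouse. The fold was 1.74 (log2 0.80, SE 0.18; limma on voom values, Benjamini-Hochberg adjusted p = 0.028). The call was lost when FC mouse 12, 16, 20 or 32 or FH mouse 13, 17 or 34 was left out, with an adjusted p of up to 0.101, and in a fit of the 28 locked mice alone (adjusted p = 0.076).

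In running mice the pattern of 5430431A17Rik was different. Levels ran from 12.8 to 21.4 CPM in MCE (median 13.3) and from 13.6 to 19.6 in MHE (median 18.8). All 7 MHE mice lay within the range of the controls, the top of which was set by MCE mouse 13 at 21.4; the next highest control was at 14.0. The difference of 0.31 (SE 0.14, adjusted p = 0.262) did not pass. In females the range was 10.3 to 17.8 CPM in FCE (median 14.0) and 7.78 to 15.4 in FHE (median 12.6), with a log2 fold change of -0.29 (SE 0.16, adjusted p = 0.442).

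The wheel moved 5430431A17Rik in female controls. Every FCE mouse was above every FC mouse, a 1.91-fold rise (log2 0.93, SE 0.18, adjusted p = 0.001). Among all genes tested, 8.62% passed in that comparison and 2.30% did not overlap between the groups. In labelled females the same comparison gave -0.16 (SE 0.15, adjusted p = 0.643; 3.71% of all genes passed). The knockout label difference was thus 1.09 lower on the log2 scale with running than with locked wheels in females (log2 -1.09, SE 0.23, unadjusted p = 3.2e-05). By that p the gene ranked 2 of 13975, yet it missed the threshold after adjustment (adjusted p = 0.226), as did all other genes by limma; DESeq2 called it (adjusted p = 0.022). These comparisons share the FCE and FC mice, so they are not separate pieces of evidence. Running females labelled HuRm-/- also had less of it than running males of the same label (FHE versus MHE, log2 -0.56, SE 0.14, adjusted p = 0.012; 5.65% of all genes passed), with 4 of 7 FHE mice below every MHE mouse, a call that was lost without FHE mouse 3. With the adipocyte marker score as a covariate, the calls of FCE versus FC and FHE versus MHE did not hold. They were at 0.74 (SE 0.20, adjusted p = 0.086) and -0.38 (SE 0.17, adjusted p = 0.281). In the same fit the difference of -1.09 between running and locked females was -0.96 (SE 0.23, adjusted p = 0.566). The same comparison of the sexes in controls gave 0.04 (SE 0.15, adjusted p = 0.922), and the difference between both did not pass (log2 -0.59, SE 0.21, adjusted p = 0.473).

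Srrm4os differed by sex in controls before any genotype is considered. Levels ran from 2.48 to 4.80 CPM in MCE (median 3.89) and from 5.97 to 10.0 in FCE (median 6.22), without overlap, and the rise was 1.88-fold (log2 0.91, SE 0.26, adjusted p = 0.019; 7.55% of all genes passed and 3.09% did not overlap). In locked mice the MC range of 2.67 to 3.92 also lay below the FC range of 5.19 to 7.14, which is given without a test because MC mice chose the gene. The call in running mice was lost with the adipocyte marker score as a covariate (log2 0.77, adjusted p = 0.074), and with the score of 8 slow fibre genes, added after the data were seen, the difference was 0.23 (SE 0.25, adjusted p = 0.674). Against this background the labelled mice were more spread. FH ran from 6.69 to 12.6 CPM (median 9.88), with 5 of 7 above every FC mouse, and the log2 fold change was 0.51 (SE 0.23, adjusted p = 0.290). MHE ran from 2.43 to 9.85 (median 6.58), with 4 of 7 above every MCE mouse and 1 below, at 0.59 (SE 0.26, adjusted p = 0.249); without MHE mouse 4 it was 0.82 (adjusted p = 0.049). FHE ran from 5.19 to 13.8 (median 7.18), with 2 of 7 above every FCE mouse and 2 below, at 0.17 (SE 0.23, adjusted p = 0.802). The mean of the 3 was 0.42 (SE 0.14, adjusted p = 0.047), a call that was lost in 27 of the 42 fits that left out 1 mouse, with adjusted p up to 0.084.

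Mocs2 had the most even difference over the 3 comparisons. FC ran from 20.7 to 30.04 CPM (median 26) and FH from 12.4 to 26.9 (median 19.4), with 4 of 7 FH mice below every control and a log2 fold change of -0.39 (SE 0.17, adjusted p = 0.269). MCE ran from 17.3 to 26.5 (median 22.9) and MHE from 9.66 to 23.6 (median 17.2), with 4 of 7 below every control, at -0.46 (SE 0.17, adjusted p = 0.136). FCE ran from 18.3 to 24.2 (median 22.6) and FHE from 12.4 to 25.8 (median 16), with 5 of 7 below every control and the other 2 above all of them, at -0.37 (SE 0.17, adjusted p = 0.343). The mean of the 3 fell to 0.754 of the control level (log2 -0.41, SE 0.10, adjusted p = 0.006), and it passed in all 42 fits that left out 1 mouse, with adjusted p of 0.002 to 0.012. For Mocs2 neither the wheel comparisons in females nor the sex comparisons in running mice passed, and those with MC or MH were not tested.

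Pi4kb was read with few counts, 4 to 46 per mouse, so that 1 count more or less moves a mouse visibly. FC ran from 0.747 to 1.74 CPM (median 1.23) and FH from 0.983 to 3.06 (median 1.48), at a log2 fold change of 0.47 (SE 0.32, adjusted p = 0.537). MCE ran from 0.550 to 1.76 (median 1.13) and MHE from 0.953 to 3.17 (median 2.37). There 5 of 7 MHE mice were above every control, and the difference of 0.95 (SE 0.29, adjusted p = 0.061) was just short of the threshold; without MHE mouse 6 it was 1.14 (adjusted p = 0.012). FCE ran from 0.543 to 2.19 (median 1.74) and FHE from 1.07 to 2.72 (median 2.23), at 0.32 (SE 0.29, adjusted p = 0.681). The mean of the 3 was 0.58, or 1.49-fold (SE 0.17, adjusted p = 0.028), with an adjusted p of 0.008 to 0.050 when 1 mouse was left out.

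1600014C10Rik and Peli2 did not pass in any comparison of the 42 mice. For 1600014C10Rik the median was 14.9 CPM in FC (13.9 to 18.4) and 15.1 in FH (9.84 to 17), 16.1 in MCE (14.2 to 19.9) and 14.3 in MHE (10.0 to 17.1), and 19.1 in FCE (14.1 to 19.5) and 17 in FHE (13 to 23.1). Its log2 fold changes were -0.16, -0.22 and -0.08 (SE 0.12, 0.11 and 0.11), and their mean was -0.15 (95% confidence interval -0.29 to -0.02, adjusted p = 0.158). For Peli2 the median was 8.76 CPM in FC (7.36 to 11) and 8.25 in FH (6.60 to 9.09), 8.61 in MCE (8.17 to 9.96) and 9.09 in MHE (7.85 to 13.2), and 9.43 in FCE (5.97 to 12) and 7.24 in FHE (4.87 to 9.83). Its log2 fold changes were -0.21, 0.09 and -0.26 (SE 0.14, 0.13 and 0.14), so running males lay opposite to the other pairs. The mean was -0.13 (95% confidence interval -0.29 to 0.03, adjusted p = 0.349).

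For 1600014C10Rik and Peli2 the locked male controls held the highest mean of all 8 groups, at 20.5 CPM ± 3.80 (SD, n = 7) and 11.2 CPM ± 1.14 (SD, n = 7). The next groups were FCE at 18 ± 2.02 for 1600014C10Rik and MHE at 9.57 ± 1.89 for Peli2. Each step was smaller than the larger of both SDs. MC and MH chose the genes, so where both groups stand here and in the orders below was set in part by that choice. For 5430431A17Rik the order of the group means ran FC, MC, FHE, FH, FCE, MCE, MHE and MH, with steps beyond the larger SD only between FC and MC, MCE and MHE, and MHE and MH. For Srrm4os it ran MC, MCE, MHE, FC, FCE, MH, FHE and FH, for Pi4kb MC, MCE, FC, FCE, FH, FHE, MHE and MH, and for Mocs2 MHE, FHE, MH, FH, FCE, MCE, FC and MC. No neighbours in these 3 orders differed beyond their spread, but for Pi4kb and Mocs2 the means of FH, MHE and FHE all stood on 1 side of those of FC, MCE and FCE.

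Labelled mice were more variable than controls in Mocs2 and Srrm4os. The SD of log2 values of Mocs2 was 2.80, 2.11 and 2.45 times that of the controls in FH, MHE and FHE, and that of Srrm4os was 2.30, 2.43 and 1.84 times. The median of that ratio over all genes was 1.04, and 15.9% of genes had the larger SD in labelled mice in all 3 comparisons. Mocs2 lay at the 99.4 percentile and Srrm4os at the 98.8 percentile of genes by this ratio. 1600014C10Rik was also more variable in labelled mice in all 3 (geometric mean ratio 1.58), while 5430431A17Rik, Pi4kb and Peli2 were not.

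The mice that were low in Mocs2 were mostly the ones that were high in Srrm4os. Of the 21 labelled mice of FH, MHE and FHE, 10 were beyond all their controls in both genes, 3 in Mocs2 alone, 1 in Srrm4os alone and 7 in neither. In FH, mice 13, 14, 17 and 19 had 12.4 to 19.4 CPM of Mocs2 and 9.88 to 12.6 of Srrm4os, while mice 30, 31 and 34 had 24.9 to 26.9 and 6.69 to 7.44. Pearson's r between both genes, after each group mean was taken out, was -0.62 over 56 mice. These include the locked males that chose the genes, and the points share the library and its depth. For the same FH mice, Myl1 was at 4801 to 5479 CPM in the first 4 and at 8398, 9771 and 13298 in the other 3, against 8681 to 9866 in FC. In MHE, mice 1, 2, 21 and 22 had 9.66 to 17.2 CPM of Mocs2 with 5417 to 5780 of Myl1, and mice 4, 6 and 7 had 19.2 to 23.6 with 9044 to 10885, against 10355 to 13576 of Myl1 in MCE. In FHE the genes went together less closely. Mice 2, 8, 21 and 22 had 12.4 to 16.02 CPM of Mocs2, 7.18 to 13.8 of Srrm4os and 3924 to 5033 of Myl1, against 7505 to 10332 of Myl1 in FCE. Mouse 10 was low in Mocs2 at 16.1 CPM, yet it was below every control in Srrm4os at 5.29 and within the controls in Myl1 at 8180. Mouse 3 was just below the controls in Myl1 at 7414 CPM and above all of them in Mocs2 at 25.8. The 3 mice that were beyond their controls in Mocs2 alone were all FHE mice. Of the 21 labelled mice, 12 were below all their controls in both Mocs2 and Myl1, 1 in Mocs2 alone, 4 in Myl1 alone and 4 in neither. The part of Myl1 in the result was not tested, and all mice were kept in the group their labels give.

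**Figure D3:**
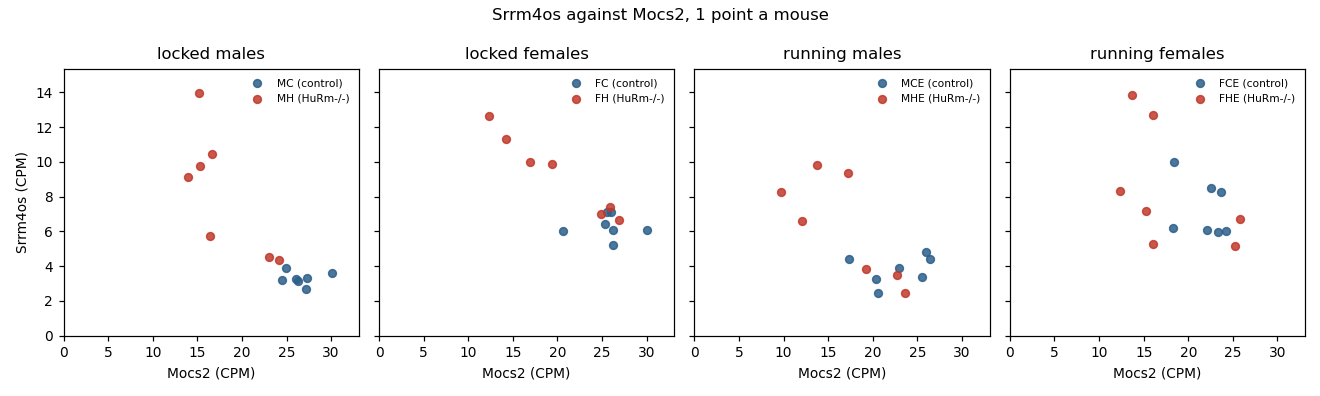
Srrm4os (y axis, CPM) against Mocs2 (x axis, CPM) in the 4 pairs of groups, 1 point per mouse, blue for controls and red for mice labelled HuRm-/-. In locked males no red point lies within the blue range of either gene, and in each of the other pairs 2 or more red points do not lie above the blue range of Srrm4os.

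Slow fibre genes moved with the label in every pair of groups. The mean log2(CPM + 0.5) of 8 such genes (Myh7, Myl2, Myl3, Tnnt1, Tnni1, Tnnc1, Atp2a2 and Tpm3) was higher in labelled mice by 0.64 in locked males, 0.53 in locked females, 0.56 in running males and 0.47 in running females (two-sided exact permutation test, n = 7 and 7, p = 0.033, 0.001, 0.023 and 0.004). Its range was 7.06 to 7.49 in FC and 7.49 to 8.39 in FH, 6.44 to 7.21 in MCE and 6.71 to 7.83 in MHE, and 7.19 to 7.80 in FCE and 7.51 to 8.13 in FHE. In the mean of the 3 comparisons 8 of 8 rose, from 0.27 for Atp2a2 to 0.70 for Tnnc1. With this score as a covariate, an alternative added after the data were seen, the mean difference of Srrm4os was -0.03 (SE 0.15, adjusted p = 0.965) in place of 0.42, and that of Mocs2 was -0.08 (SE 0.12, adjusted p = 0.871) in place of -0.41. That of Pi4kb was 0.38 (SE 0.23, adjusted p = 0.618) in place of 0.58. The label and the score move together, and of all genes tested 0 passed in that fit by limma, so the slow fibre score and label cannot be told apart in it. The FH versus FC difference of 5430431A17Rik was 0.78 (SE 0.20, adjusted p = 0.194) with the covariate and 0.80 without. The mean of 8 fast fibre genes, Myl1 among them, did not fall in every pair. It differed by -0.05 in locked males, 0.02 in locked females, -0.03 in running males and -0.15 in running females. The same permutation test gave p = 0.406, 0.751, 0.351 and 0.009. A shift of fibre type was not tested beyond these scores.

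**Figure D4:**
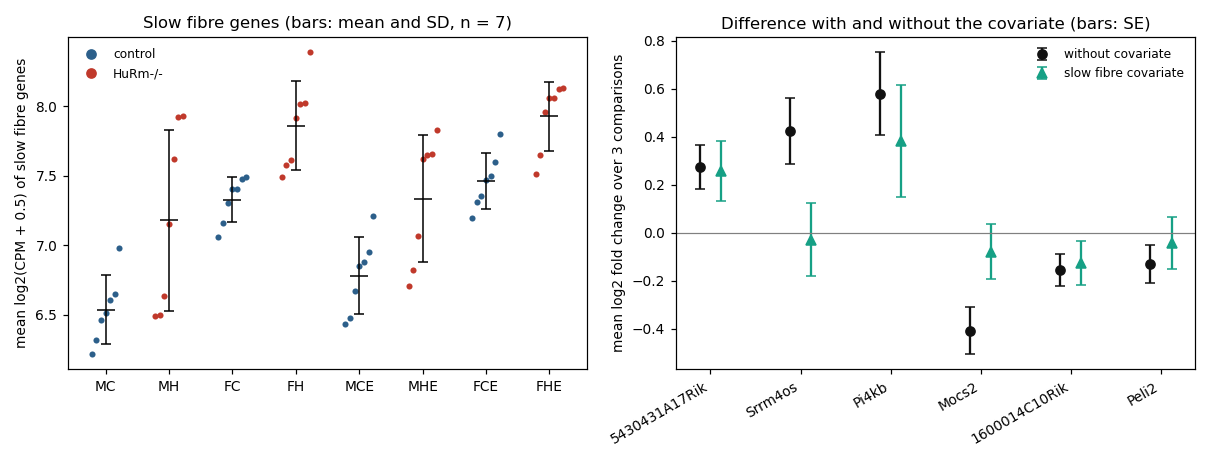
Left: mean log2(CPM + 0.5) of 8 slow fibre genes (y axis) by group (x axis), 1 point per mouse, with mean and SD (n = 7). Right: mean log2 fold change over the 3 comparisons (y axis) of each gene (x axis) without a covariate (circles) and with the slow fibre score as a covariate (triangles), with SE. Srrm4os and Mocs2 move to -0.03 and -0.08, and 5430431A17Rik and 1600014C10Rik move little.

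Liver RNA was present in some libraries and did not follow the label in 1 direction. The mean of 24 liver markers was higher in labelled mice by 2.01 in locked males (exact permutation test, n = 7 and 7, p = 0.020) and by 1.15 in running males (p = 0.171), and lower by 1.31 in locked females (p = 0.179) and 0.46 in running females (p = 0.259). The liver score was also added later as a covariate for locked males. The differences of the members in that pair were then 0.82 for 5430431A17Rik, 1.16 for Srrm4os and 1.05 for Pi4kb. They were -0.55 for Mocs2, and -0.54 for both 1600014C10Rik and Peli2. These values come from the mice that chose the genes, so they are only a description, and the part of liver RNA was not tested. Adipocyte markers were higher in FHE than in FCE by 0.57 (exact permutation test, n = 7 and 7, p = 0.006) and leukocyte markers by 0.44 (p = 0.005). With the adipocyte score as a covariate, 0 genes passed in that pair by limma, against 1 without it. The part of the leukocyte markers in that pair was not tested.

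The genes whose levels followed each member most closely over the 56 mice, after group means were taken out, are given as a description. For 5430431A17Rik they were Neat1, a nuclear long RNA (r = 0.66), Erc1 (r = 0.63) and Gm42970 (r = 0.61). Neat1 itself rose in labelled mice in the mean of the 3 comparisons (log2 0.36, SE 0.08, adjusted p = 0.002). For Srrm4os they were Nrd1 (r = 0.75), Trim44 (r = 0.73) and Ier3ip1 (r = 0.73). For Mocs2 they included Cdv3 (r = 0.82) and Rab2a, a GTPase of early secretory transport (r = 0.78). Both fell in the mean of the 3 comparisons, Cdv3 by 0.42 and Rab2a by 0.29 on the log2 scale (adjusted p = 8.4e-04 for each). The best r was 0.54 for Pi4kb (Traf3ip1), 0.65 for 1600014C10Rik (Slc25a26, the mitochondrial carrier of S-adenosylmethionine) and 0.64 for Peli2 (Polr2j, a subunit of RNA polymerase II).

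The pathways around the members were read against all genes tested, of which 7.96% passed in the mean of the 3 comparisons. Of 11 tested genes of molybdenum cofactor synthesis and use, 0 passed in any of the 3 single pairs by limma (at an unadjusted p under 0.05, 1, 2 and 2, against 14.3%, 15.6% and 13% of all genes). In the mean of the 3 comparisons 2 fell, Mocs2 itself and Gphn, which encodes gephyrin, the enzyme that inserts molybdenum (log2 -0.17, SE 0.05, adjusted p = 0.031). Mocs1 (log2 -0.10, adjusted p = 0.649) and Mocs3 (log2 0.09, adjusted p = 0.741), which act in the same synthesis, did not pass. The median of the list was -0.05, and that of all genes 0.00372.

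Of 26 tested genes of PI4P synthesis and use, 1 rose and 3 fell in the mean of the 3 comparisons, and the riser was Pi4kb. The fallers were Golph3, a Golgi reader of PI4P (log2 -0.29, adjusted p = 0.013), and Ttc7b and Efr3a, which hold PI4-kinase alpha at the plasma membrane (log2 -0.24 and -0.14, adjusted p = 0.013 and 0.037). The other PI4-kinases did not pass, with log2 fold changes of 0.02 for Pi4ka, 0.09 for Pi4k2a and 0.31 for Pi4k2b. Of 26 tested genes of Toll-like receptor signalling, 1 fell, Ube2n, which encodes a ubiquitin-conjugating enzyme for K63 chains (log2 -0.31, adjusted p = 0.017), and the paralog Peli1 was at 0.12 (adjusted p = 0.073). Of 11 tested splicing regulators related to Srrm4, 1 fell, Rbfox1 (log2 -0.29, adjusted p = 0.001). Of 10 genes linked to brain iron accumulation 0 passed by limma, with 3 at an unadjusted p under 0.05, against 21.3% of all genes.

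In the mean of the 3 comparisons, genes next to the members on the chromosome passed at about the rate of all genes. Of 23 tested neighbours, 2 fell in the mean of the 3 comparisons, where 7.96% of all genes passed: Ndufs4, a complex I subunit that lies 429978 bases before Mocs2 (log2 -0.19, adjusted p = 0.005), and Suds3, 626193 bases after Srrm4os (log2 -0.15, adjusted p = 0.032). In FH versus FC 1 of 23 passed, against 0.293% of all genes: Psmd4, 25851 bases after Pi4kb, which was higher (log2 0.33, adjusted p = 0.037). Psmd4 was at 0.12 in the mean of the 3 (adjusted p = 0.074). In MHE versus MCE 1 of 23 passed, Ndufs4 (log2 -0.39, adjusted p = 0.003), against 2.39% of all genes, and in FHE versus FCE 0 passed by limma. Ndufs4 was also lower without overlap in the locked males. Around 5430431A17Rik, Josd2 was at 0.00 (SE 0.06) and Emc10 at 0.02 (SE 0.04) in the mean of the 3, and Itga1, after Mocs2, was at 0.09 (SE 0.09).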

How the data were processed

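The authors deposited 1 table of raw, unscaled counts of reads for each gene in gastrocnemius RNA of 56 mice. The labels describe a 3′ kit (Quant-Seq) with 50-base single reads, whereas the paper describes ribosomal RNA-depleted stranded libraries, and the counts do not settle it. GRCm38 (mm10), R 4.0.3 and edgeR 3.38.4 are named in the submitters' processing notes; the aligner is not given in the sources used here. The smallest total of a listed gene over 56 mice was 168, so low genes had been removed. The labels give an age of 5 months and a wheel period from 10 to 20 weeks. Groups came from the labels. No label gives a batch, so p-values cover the spread between these mice.

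Following the study's use of TMM and limma, counts were filtered with filterByExpr, scaled by TMM in edgeR 4.0.16, weighted by voom and tested with limma 3.58.1 in R 4.3.3, over the 42 mice outside MC and MH, with Benjamini-Hochberg adjustment over 13975 genes and a threshold of 0.05. MH versus MC of the members came from a fit of the 28 locked mice and carries no test. Marker scores were tested in that pair too, by exact permutation. CPM of single genes are counts in each 1000000 of the library total after TMM scaling over the 56 mice. Scores of marker lists are means of log2(CPM + 0.5), with CPM there taken without TMM scaling. Exact permutation tests were two-sided. Members and lists were chosen with earlier results of these data known. Genes named besides the members are Elavl1, Myl1, overlapping and adjacent listed genes, list genes that passed or are paralogs, up to 3 genes most like each member (1 of them is not reported here), and the next gene in each direction by the choice rule. Alternatives were edgeR's quasi-likelihood test, DESeq2 1.42.0, other normalizations, filters, sample weights and sets of mice, marker covariates, a replicate block and leaving out each mouse. The fit was tested on simulated counts with known changes. Gene models and transcript sequences were those of GENCODE M21.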

Additional observations from a re-analysis of the deposited data

Results flagged for a closer look

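In 48 groups of 7 values (6 genes in 8 groups), 1 mouse stood apart from the rest of its group by the gap test of Dixon. MCE mouse 13 had 21.4 CPM of 5430431A17Rik, and the next highest MCE mouse had 14.0. Chance alone flags about 1 in 20 groups. The same mouse was the lowest of its group in Elavl1, at 27.8 CPM. Without it the MHE versus MCE difference of 5430431A17Rik was 0.40 on the log2 scale in place of 0.31.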

How the results depend on the processing

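Mocs2, in the mean over 42 mice, passed under all 11 alternative settings other than the slow fibre covariate and without each mouse in turn. That covariate, added after the data were seen, took the number of members that passed there from 3 to 0. Leaving out 1 mouse gave 2 to 4 members for that mean, 0 or 1 for FH versus FC, 0 or 1 for MHE versus MCE and 0 or 1 for FHE versus MHE. FH versus FC had 1 member, and 0 with only the locked mice or with the slow fibre covariate. MHE versus MCE had 0 members, 1 with DESeq2 (Srrm4os, adjusted p = 0.039), 1 with all 56 mice (Pi4kb, adjusted p = 0.046) and 2 with sample quality weights (Pi4kb and Mocs2). The difference between running and locked females had 0 members, and 1 with DESeq2. With the adipocyte covariate, 0 members passed in FCE versus FC, FCE versus MCE and FHE versus MHE, where 1 had passed, and 0 passed in FCE versus MCE with the slow fibre covariate. That covariate turned Srrm4os to -0.24 in FHE versus FCE and to -0.028 in the mean. The cause was not tested. 5430431A17Rik passed in the mean under 6 alternatives (lowest adjusted p = 0.022), Srrm4os failed under 4, and Pi4kb failed with the slow fibre and the adipocyte covariate (adjusted p = 0.618 and 0.061). DESeq2 called 158 genes in FH versus FC and 72 in FHE versus FCE, against 41 and 1, and quality weights called 942 in MHE versus MCE, against 334, and 1711 in the mean, against 1112. The replicate numbers were not taken as pairs: control and labelled groups of the same sex and wheel share none, and mice of both sexes with the same number correlated at -0.19 to 0.20. With a replicate block the mean had 3 members, 1 passed in FH versus FC, and the correlation was 0.026.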
